A study of Mus musculus with 6 samples.

Results

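Interferon-induced genes are the transcripts that cells switch on when interferons bind their receptors. A list of 49 such genes was followed in skeletal muscle of dystrophic mice, and 42 of them were measured by a probe set that carried their symbol alone, among 19752 genes measured in that way. A gene with several such probe sets was represented by its brightest. The 7 listed genes that are not analysed here are Isg15, Ifi44, Phf11b, Gbp6, Igtp, Irgm2 and Tgtp1. The 42 fell into 23 effectors, 3 RNA sensors, 5 transcription factors or coactivators, 8 GTPases, and a set of 3 genes made up of the enzymes Ido1 and Upp1 and the peptide transporter chain Tap1. The mice carried the mdx mutation, which removes dystrophin and leaves muscle fibres prone to damage, in the treated and the control group alike. A group of 3 samples came from animals given an anti-CD25 antibody, clone PC61, which binds the interleukin-2 receptor alpha chain on regulatory T cells. The other group of 3 samples came from animals given rat IgG. Each animal had 2 intraperitoneal injections, on days 17 and 20 of age. The series' design text places dissection 7 days after the second injection, which is day 27, while the sample labels state an age of 6 weeks. No label states whether each sample is a different animal; the p-values therefore rest on the spread among these samples, and part of that spread may be technical. The question in the series' title is what loss of regulatory T cells does to dystrophic muscle.

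Type I interferons signal through the receptor chains Ifnar1 and Ifnar2 and drive a factor that contains Stat2 and Irf9 and binds interferon-stimulated response elements. Interferon gamma, a product of T and NK cells, signals through Ifngr1 and Ifngr2 and acts in part through Irf1. The antiviral effectors are known chiefly as type I targets, whereas the guanylate-binding proteins and the immunity-related GTPases, which attack vacuoles that hold microbes, respond strongly to interferon gamma. Many genes answer to both signals. In muscle these genes are read out from fibres, vessels, stromal cells and immune cells together, and in whole tissue fewer cells of a type and less RNA per cell cannot be told apart.

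The array behind each sample was compared with its labels before the genes were read. The 10 markers of muscle fibres, among them Ckm and Acta1, had means between 12.59 and 13.80 log2 units of intensity. The labels call all the animals male, but Xist, the RNA of the inactive X chromosome, was high on 4 arrays (11.77 to 11.94 log2 units; rat IgG 1 and 2, anti-CD25 1 and 2) and low on 2 (5.48 and 5.49; rat IgG 3 and anti-CD25 3), and Y-linked genes showed the opposite. Each treatment group thus held both kinds of array, and differences are given within each kind where they matter. Median intensity lay between 149.8 and 151.5 on all 6 arrays. Il2ra, which encodes the chain that the antibody binds, measured 5.57, 5.71 and 5.73 log2 units on rat IgG 1 to 3 and 5.71, 5.76 and 5.53 on anti-CD25 1 to 3. Foxp3, the factor that defines regulatory T cells, measured 6.60, 6.69 and 6.43 with rat IgG and 6.42, 6.41 and 6.61 with anti-CD25. The groups overlapped for both genes, so neither transcript marked the treatment in whole muscle. Il2ra lay at percentile 22.5 and Foxp3 at percentile 37.6 of intensity among all genes, so both are weak checks of the treatment.

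The response element can be read in the promoters of the genes themselves. RefSeq promoters of assembly GRCm38.p6, 250 bases before to 50 after the start, were matched by symbol for 26 of the 42 genes, with 32 promoters in all. The core of the interferon-stimulated response element was searched on both strands as TTTC, any 2 bases and TTTC again. The response element core was present in 16 of the 32 promoters and in 3.44% of all 32851 promoters of the same length. It stood in 9 of 17 promoters of effectors, 4 of 5 of GTPases, 2 of 2 of RNA sensors, 1 of 4 of factors and 0 of 4 of the remaining genes. A match is a string of letters, not a measured binding site. The stretches below hold the 170 bases before the start on the gene's own strand, 4 from effectors and 4 from GTPases, so that the shared element can be seen beside the values of the same genes. Capitals mark the response element core, on either strand, and overlapping copies run together.
Ifit1: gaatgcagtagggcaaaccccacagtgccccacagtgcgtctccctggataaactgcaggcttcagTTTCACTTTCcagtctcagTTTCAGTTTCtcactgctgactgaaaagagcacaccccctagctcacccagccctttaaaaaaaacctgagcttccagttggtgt
Ifit3: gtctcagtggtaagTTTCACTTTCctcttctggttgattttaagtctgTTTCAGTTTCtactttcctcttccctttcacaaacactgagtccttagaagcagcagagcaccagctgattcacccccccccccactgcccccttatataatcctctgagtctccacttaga
Rsad2: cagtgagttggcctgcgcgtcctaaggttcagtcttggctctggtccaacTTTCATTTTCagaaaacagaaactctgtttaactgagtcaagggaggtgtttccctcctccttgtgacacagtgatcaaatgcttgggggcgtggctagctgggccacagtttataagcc
Trim30a: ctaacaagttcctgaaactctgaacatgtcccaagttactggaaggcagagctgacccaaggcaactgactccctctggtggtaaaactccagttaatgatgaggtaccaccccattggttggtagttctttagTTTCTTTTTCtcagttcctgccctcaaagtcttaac
Gbp3: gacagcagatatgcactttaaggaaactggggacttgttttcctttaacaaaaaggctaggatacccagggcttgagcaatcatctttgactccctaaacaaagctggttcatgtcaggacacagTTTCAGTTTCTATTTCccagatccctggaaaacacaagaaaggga
Gbp5: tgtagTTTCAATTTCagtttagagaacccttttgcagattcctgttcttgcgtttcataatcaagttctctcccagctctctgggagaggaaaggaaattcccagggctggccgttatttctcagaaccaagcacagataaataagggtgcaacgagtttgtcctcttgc
Gbp7: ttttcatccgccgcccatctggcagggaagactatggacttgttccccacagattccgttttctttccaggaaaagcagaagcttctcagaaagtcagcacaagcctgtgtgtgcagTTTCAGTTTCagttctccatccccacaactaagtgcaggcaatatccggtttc
Irgm1: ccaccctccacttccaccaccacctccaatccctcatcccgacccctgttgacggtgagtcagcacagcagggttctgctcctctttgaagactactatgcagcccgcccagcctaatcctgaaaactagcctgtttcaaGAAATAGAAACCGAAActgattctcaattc
These lie at chr19:34640719-34640888 (plus strand), chr19:34583359-34583528 (plus), chr12:26456453-26456622 (minus), chr7:104465194-104465363 (minus), chr3:142559874-142560043 (plus), chr3:142496764-142496933 (plus), chr3:142530166-142530335 (plus) and chr11:48871421-48871590 (minus). Ifit1 and Ifit3 each carry 2 separate copies, which begin 104 and 85 bases and 156 and 122 bases before the start. In Gbp3 and Irgm1 the 2 copies overlap, and in Irgm1 they lie on the opposite strand. Gbp5 holds its copy farther out, 165 bases before the start. Gbp7 has its copy 53 bases before the start.

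Across the 42 genes, none differed between anti-CD25 and rat IgG past limma's test. No gene of the 19752 passed at an adjusted p of 0.05 either (0% called), and the smallest adjusted p among the 42 was 0.750. At an unadjusted p under 0.05 there was 1 of 42, Usp18, where 6.28% of all genes reached that level. Of the 42, 16 were higher and 26 lower with anti-CD25, with a median difference of -0.0066 log2 units (anti-CD25 minus rat IgG, as throughout). Over all genes tested, 8121 were higher and 11631 lower, with a median of -0.026. The split of the 42 depends on the scaling, since it was 22 higher and 20 lower after median centring. The single differences ran from -0.26 for Usp18 to 0.25 for Iigp1, a GTPase. Every one of the 42 intervals (95%, limma) lay within a 2-fold change in either direction, and 41 lay within a 1.5-fold change. The exception was Iigp1, whose interval ran from -0.26 to 0.77. RMA draws dim probe sets together, so the bounds are weakest for Mx1, Mx2, Gbp5, Gbp8 and Ido1, which are among the 30% dimmest genes. Ifit3, Oas1a, Trim30a and the Gbp genes have close relatives in the mouse genome, so signal between relatives may be shared and their single values are uncertain to that degree.

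**Figure D1:**
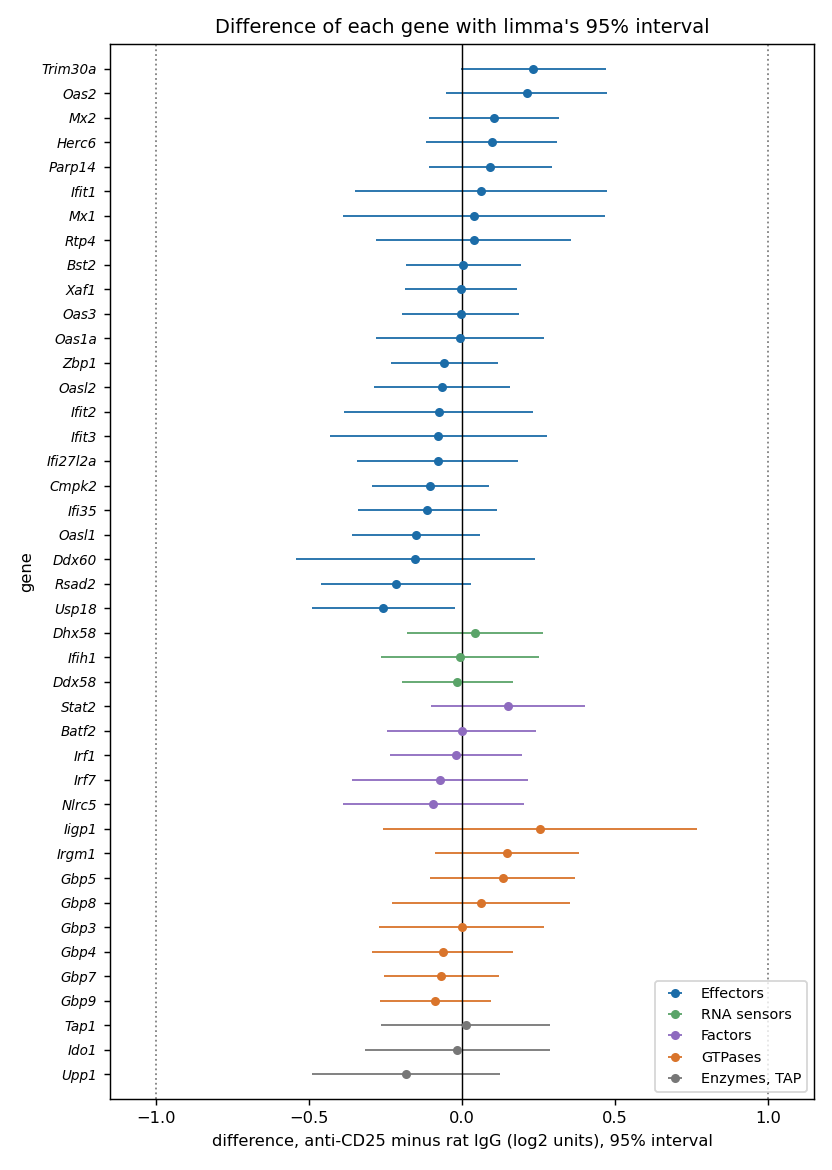
Difference in log2 intensity (horizontal axis, anti-CD25 minus rat IgG) of each of the 42 genes (vertical axis, grouped by role), with limma's 95% interval as a bar; dotted lines mark a 2-fold change. All the intervals lie inside the dotted lines, and the Usp18 interval, -0.49 to -0.024, does not reach 0.

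Among the effectors, Usp18 and Trim30a had the largest statistics, in opposite directions. Usp18 is the protease that strips the ubiquitin-like protein ISG15 from its targets and dampens type I receptor signalling. Its probe set, 10541307, measured 8.54, 8.43 and 8.66 log2 units on rat IgG 1 to 3 and 8.41, 8.32 and 8.13 on anti-CD25 1 to 3. Every anti-CD25 array lay below every rat IgG array, with anti-CD25 3 the lowest, and the gap between the nearest arrays was small. The means were 8.55 ± 0.12 (SD, n = 3) and 8.29 ± 0.15 (SD, n = 3), a difference of -0.26 (SE 0.10; limma adjusted p = 0.750). It was -0.12 among the 4 high-Xist arrays and -0.53 between the 2 low-Xist arrays. Trim30a, a TRIM family protein that restrains inflammatory signalling, measured 9.55, 9.21 and 9.53 with rat IgG and 9.64, 9.65 and 9.70 with anti-CD25. The groups did not overlap, rat IgG 2 was far below the other arrays, and the difference was 0.23 (SE 0.10; limma adjusted p = 0.750). Without rat IgG 2 it was 0.12. Oasl1, an oligoadenylate synthetase-like protein that limits translation of Irf7, also did not overlap, with 7.58, 7.59 and 7.82 against 7.56, 7.48 and 7.48. Its difference was -0.15 (SE 0.092), with rat IgG 3 well above the rest, and it was -0.072 without that array. Groups without overlap were therefore found for 1 higher gene and 2 lower genes of the 42, where 4.28% and 7.46% of all genes showed the same.

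Rsad2, or viperin, makes an altered nucleotide that stops viral polymerases. It measured 8.04, 7.66 and 7.82 log2 units with rat IgG and 7.69, 7.55 and 7.63 with anti-CD25, so only anti-CD25 1 and rat IgG 2 crossed. The difference was -0.22 (SE 0.11), and -0.11 without rat IgG 1. Cmpk2, a mitochondrial nucleotide kinase encoded beside Rsad2, differed by -0.10. Oas2, an oligoadenylate synthetase that helps switch on RNase L, measured 8.66, 8.36 and 8.76 with rat IgG and 8.80, 8.90 and 8.71 with anti-CD25. It was lowest on rat IgG 2 and the groups overlapped. Its difference of 0.21 (SE 0.12) was 0.092 without rat IgG 2. Other members of the synthetase family, named after their values were seen, differed by -0.0055 (Oas1a), -0.0047 (Oas3) and -0.065 (Oasl2). The signs of Oas1a and Oas3 are not stable, as both values are far smaller than their SEs of 0.12 and 0.084.

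The most variable effectors were Mx1 and Ifit1, whose spread lay within the rat IgG group. Ifit1, which binds viral RNA that lacks the host's cap marks, measured 8.17, 7.51 and 8.25 log2 units with rat IgG and 8.16, 8.07 and 7.88 with anti-CD25. Rat IgG 2 was the lowest array and rat IgG 3 the highest, so the anti-CD25 values lay between rat IgG values. The difference was 0.062 (SE 0.18) over all arrays and -0.17 without rat IgG 2. Mx1, a dynamin-like antiviral GTPase, measured 6.34, 5.54 and 6.24 with rat IgG and 6.19, 6.09 and 5.97 with anti-CD25. Its difference was 0.039 (SE 0.19), and -0.21 without rat IgG 2. Ifit3, a partner of Ifit1, measured 8.88, 8.31 and 8.55 against 8.73, 8.34 and 8.43, a difference of -0.077 (SE 0.16). Rat IgG 2 was again the lowest. At the other end, Xaf1 and Zbp1, which promote cell death, spanned 0.14 and 0.13 log2 units over the 6 arrays, while Mx1 spanned 0.79 and Ddx60, a helicase, 0.78. Among the 23 effectors, 9 were higher and 14 lower, with a median difference of -0.0055, which turned to 0.0024 after median centring.

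**Figure D2:**
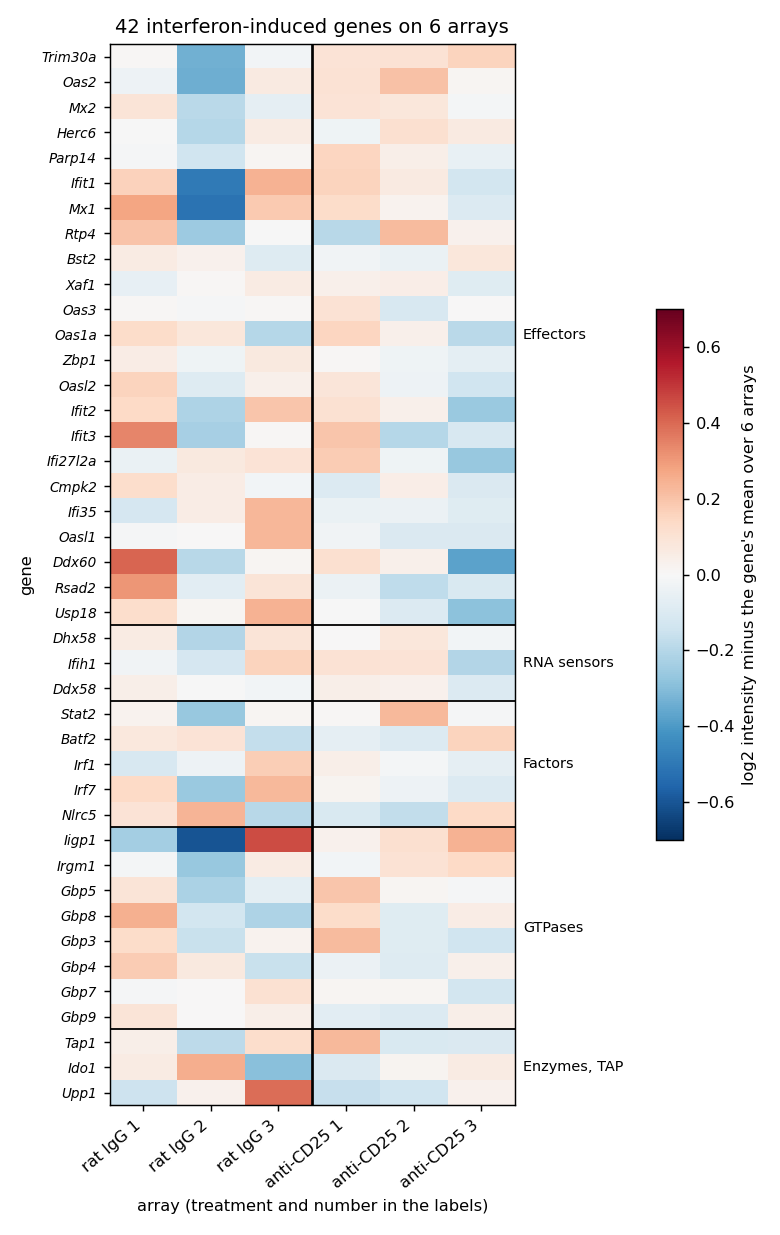
Log2 intensity of each of the 42 genes (rows, grouped by role and ordered by difference) on the 6 arrays (columns), relative to the gene's mean over the arrays; red is above and blue below the mean. The column of rat IgG 2 is blue for many effectors and GTPases, with Iigp1, Mx1 and Ifit1 the darkest.

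Over all 6 arrays the RNA sensors and the transcription factors lay close together in the 2 groups, but their differences turned between the kinds of array. The sign was the same in both kinds for 0 of 3 sensors and 0 of 5 factors, where 43.0% of all genes kept it. The sensor median was 0.12 among the high-Xist arrays and -0.11 between the low-Xist arrays, and the factor median 0.055 and -0.026. Ddx58, which encodes the viral RNA sensor RIG-I, measured 8.82, 8.77 and 8.76 log2 units with rat IgG and 8.82, 8.81 and 8.68 with anti-CD25, a difference of -0.015 (SE 0.080). Ifih1, which encodes the long-RNA sensor MDA5, differed by -0.0077 (SE 0.11), made up of 0.17 among the high-Xist arrays and -0.36 between the low-Xist arrays. Dhx58, which encodes the regulatory sensor LGP2, differed by 0.043 (SE 0.098), with 0.12 among the high-Xist arrays and -0.11 between the low-Xist arrays. Irf7, the factor that amplifies interferon alpha production, measured 8.56, 8.16 and 8.65 with rat IgG and 8.44, 8.39 and 8.33 with anti-CD25. All the anti-CD25 values fell between those of rat IgG 2 and rat IgG 1, and the difference was -0.071 (SE 0.13). It was 0.055 among the high-Xist arrays and -0.32 between the low-Xist arrays. Irf1, a factor central to interferon gamma responses, measured 7.82, 7.90 and 8.11 against 7.97, 7.92 and 7.87, a difference of -0.019 (SE 0.095). Its difference was 0.088 among the high-Xist arrays and -0.23 between the low-Xist arrays. Stat2, the type I signal transducer, measured 8.50, 8.21 and 8.49 against 8.49, 8.70 and 8.47, a difference of 0.15 (SE 0.11), and 0.054 without rat IgG 2. Batf2, an AP-1 family factor of activated macrophages, differed by -0.00086 (SE 0.11), made up of -0.16 among the high-Xist arrays and 0.33 between the low-Xist arrays.

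Nlrc5, the coactivator of MHC class I genes, was covered by 19 probe sets. The brightest of them measured 9.94, 10.09 and 9.65 log2 units with rat IgG and 9.74, 9.68 and 9.99 with anti-CD25. Its mean of 9.85 stood well above the 8.01 of the next brightest, so it may not speak for the gene. The groups overlapped fully in this probe set. Its difference of -0.093 (SE 0.13) was -0.31 among the high-Xist arrays and 0.34 between the low-Xist arrays. The 19 probe sets did not share a direction: 10 were higher and 9 lower, from -0.19 to 0.22, with a median of 0.025. The 2 probe sets of Irf1 differed by -0.20 and -0.019, of which the second is the brighter one used above. Over the 5 factors, 1 was higher and 4 lower, with a median of -0.019.

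Among the GTPases, 4 were higher and 4 lower with anti-CD25, with a median difference of 0.031, and the immunity-related GTPases Iigp1 and Irgm1 had the largest positive values. Iigp1 coats the vacuoles of parasites and opens them. It measured 7.68, 7.31 and 8.37 log2 units on rat IgG 1 to 3 and 7.94, 8.02 and 8.16 on anti-CD25 1 to 3. The rat IgG arrays held both the lowest and the highest value of the 6, 1.06 log2 units apart, and the anti-CD25 arrays lay within that span. The means were 7.79 ± 0.54 (SD, n = 3) and 8.04 ± 0.11 (SD, n = 3), a difference of 0.25 (SE 0.23; limma adjusted p = 0.808). It was 0.017 without rat IgG 2 and 0.55 without rat IgG 3, neither of which passed the test. It was 0.49 among the high-Xist arrays and -0.21 between the low-Xist arrays. Irgm1, which guards host membranes against the attacking GTPases, measured 8.34, 8.09 and 8.41 with rat IgG and 8.33, 8.45 and 8.49 with anti-CD25. Its difference was 0.15 (SE 0.10), and 0.050 without rat IgG 2.

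The guanylate-binding proteins had smaller values. Gbp5, which promotes inflammasome assembly, measured 6.17, 5.85 and 6.01 log2 units with rat IgG and 6.27, 6.09 and 6.07 with anti-CD25. The groups overlapped, and the difference was 0.13 (SE 0.10), or 0.055 without rat IgG 2. Gbp3 measured 7.75, 7.46 and 7.65 against 7.84, 7.54 and 7.48, a difference of -0.0010 (SE 0.12). Gbp7 measured 8.76, 8.78 and 8.88 against 8.79, 8.78 and 8.65, a difference of -0.067 (SE 0.083). Gbp4, Gbp8 and Gbp9 differed by -0.063, 0.063 and -0.087, with SEs of 0.10, 0.13 and 0.080. The median of the 8 GTPases turned below 0 among genes above the 30th percentile of intensity, to -0.032, because dim Gbp5 and Gbp8 drop out there.

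The effectors and the GTPases were set against each other on each array, as the mean of the 23 effectors minus the mean of the 8 GTPases, with each gene relative to its own mean over the 6 arrays. This contrast was 0.040, 0.031 and 0.031 log2 units on rat IgG 1 to 3 and -0.0034, 0.023 and -0.12 on anti-CD25 1 to 3. The rat IgG arrays lay close together and above every anti-CD25 array, and anti-CD25 3 stood apart from the rest. The group means were 0.034 ± 0.0052 (SD, n = 3) and -0.034 ± 0.077 (SD, n = 3), a difference of -0.068. Without anti-CD25 3 the difference was -0.024. It was -0.026 among the high-Xist arrays and -0.15 between the low-Xist arrays. The contrast is a score over chosen genes and carries no p. Both parts of it moved together on rat IgG 2, where the effector mean was -0.13 and the GTPase mean -0.16, so that array did not stand apart in the contrast. On anti-CD25 3 they parted, with -0.092 for the effectors and 0.029 for the GTPases.

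Of the remaining genes, Tap1, which pumps peptides to MHC class I molecules, measured 7.85, 7.63 and 7.93 log2 units with rat IgG and 8.04, 7.70 and 7.71 with anti-CD25, a difference of 0.012 (SE 0.12). Upp1, the uridine-splitting enzyme, measured 6.62, 6.79 and 7.15 against 6.60, 6.62 and 6.79. Rat IgG 3 was the only array above the anti-CD25 range by a clear margin, and the difference of -0.18 (SE 0.13) was -0.034 without it. Ido1, which degrades tryptophan, was dim, at 5.25, 5.45 and 4.90 against 5.09, 5.21 and 5.25. It differed by -0.015 (SE 0.13), and by 0.064 after a second quantile normalization. The Ido1 difference was -0.20 among the high-Xist arrays and 0.35 between the low-Xist arrays.

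A single control array was the lowest for many of these genes. Rat IgG 2 was the lowest of the 6 arrays for 17 of the 42 genes (40.5%), compared with 20.4% of all genes tested. Anti-CD25 3 was the lowest for 11 (26.2%), compared with 16.8% of all genes. Rat IgG 3 was the highest for 14 (33.3%), compared with 17.5% of all genes. Over the 6 arrays the median range of a gene was 0.39 log2 units among the 42 and 0.34 over all genes, and the median SD within groups was 0.14 and 0.12. The effector means were 0.10, -0.13 and 0.063 on rat IgG 1 to 3 and 0.053, 0.0075 and -0.092 on anti-CD25 1 to 3. The difference of the effector means was 0.046 among the high-Xist arrays and -0.15 between the low-Xist arrays, where each treatment has 1 array. The sign was the same in both kinds of array for 17 of the 42 genes (40.5%) and for 8503 of all 19752 (43.0%), a like share. In limma's test of whether the treatment difference depended on the kind of array, 0 of the 42 genes passed at an adjusted p of 0.05, where 0.0405% of all genes did. An unadjusted p under 0.05 in this limma test was found for 7 of the 42 and for 3841 of all 19752, a like share.

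Macrophages are a large source of interferon-induced transcripts, and markers of other cells were measured beside the 42 genes. All 15 measured macrophage markers were higher with anti-CD25, with a median difference of 0.31 log2 units, and none passed the adjusted test. Mertk and Cd163, receptors by which macrophages take up dying cells and haemoglobin, differed by 0.71 and 0.51. The summed intensity of the 15 markers ran from 16792 to 20933 with rat IgG and from 20403 to 27197 with anti-CD25, and no marker was at 0. Their list mean was -0.11, -0.41 and -0.0012 on rat IgG 1 to 3 and 0.32, -0.036 and 0.24 on anti-CD25 1 to 3. Rat IgG 2, the lowest array for many interferon-induced genes, was the lowest for 14 of the 15 markers. Anti-CD25 1 and 3, which had the highest marker means, had effector means of 0.053 and -0.092. Without rat IgG 2 the median difference of the markers was 0.20, that of the effectors -0.089 and that of the GTPases -0.015. What part macrophage content has in the values of the 42 genes was not tested. Other marker lists had median differences of -0.041 for 14 T and NK cell genes, -0.089 for 6 genes of plasmacytoid dendritic cells, the main producers of interferon alpha, 0.065 for 8 neutrophil genes, -0.016 for 8 endothelial genes, 0.00097 for 7 stromal genes and -0.016 for 10 muscle fibre genes. Each of these medians had opposite signs in the 2 kinds of array. Among the high-Xist arrays the first 3 lists stood at -0.13, -0.16 and 0.12, and between the low-Xist arrays at 0.13, 0.20 and -0.10. In those 3 lists, 9 of 14, 3 of 6 and 3 of 8 genes were among the 30% dimmest.

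**Figure D3:**
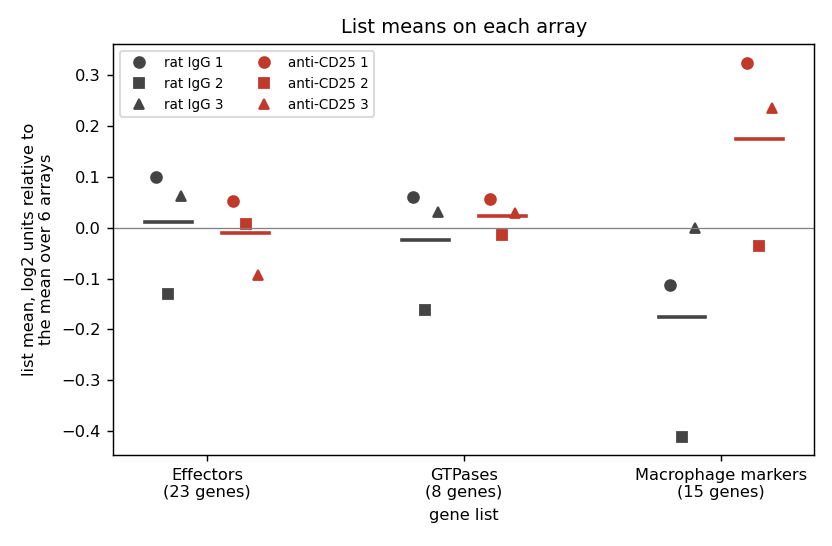
Mean of 3 gene lists (horizontal axis) on each array, in log2 units relative to the mean over the 6 arrays (vertical axis); symbols are single arrays, grey for rat IgG and red for anti-CD25, and lines are group means. The groups overlap in all 3 lists, and rat IgG 2 is the lowest array in each.

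The genes that make, receive and restrain the interferon signal were taken from fixed lists. Of 19 measured ligand genes, 4 were higher and 15 lower with anti-CD25, with a median of -0.13, and 11 of the 19 were among the 30% dimmest genes, whose own median was -0.080. The ligand median turned between the kinds of array, with -0.23 among the high-Xist arrays and 0.13 between the low-Xist arrays. Interferon gamma, Ifng, measured 6.08, 5.77 and 5.61 log2 units with rat IgG and 5.72, 5.72 and 5.78 with anti-CD25, a difference of -0.080 (SE 0.12). Interferon beta, Ifnb1, differed by -0.019 (SE 0.096). The ligands with the largest statistics, Ifna9 at -0.33 (SE 0.087) and Ifnk at -0.25 (SE 0.097), are both dim and moved to -0.27 and -0.16 after a second quantile normalization. No ligand passed the adjusted test.

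The receptor chains did not share a direction, and none passed the test. Ifngr1, the binding chain for interferon gamma, measured 10.26, 10.21 and 10.40 log2 units with rat IgG and 10.56, 10.48 and 10.58 with anti-CD25. Ifnar2, a type I receptor chain, measured 9.70, 9.43 and 9.71 against 9.95, 9.82 and 9.90. Ifnar1, its partner, measured 9.13, 9.07 and 9.21 against 9.32, 9.25 and 9.29. In all 3 genes every anti-CD25 array lay above every rat IgG array, and rat IgG 2 was the lowest array. The differences were 0.25 (SE 0.085), 0.28 (SE 0.098) and 0.15 (SE 0.079), each with a limma adjusted p of 0.750. Without rat IgG 2, Ifngr1 differed by 0.21 and Ifnar2 by 0.18. Ifngr2, the signalling chain for interferon gamma, differed by -0.056 (SE 0.079). Ifnlr1 and Il10rb, the chains of the interferon lambda receptor, differed by -0.11 (SE 0.15) and 0.25 (SE 0.13), and the groups overlapped in both. Socs1, which blocks the JAK kinases below both receptors and was picked out after its values were seen, measured 7.67, 7.89 and 7.84 against 7.46, 7.55 and 7.64, a difference of -0.25 (SE 0.093; limma adjusted p = 0.750). Other restrainers of the signal in the same list had positive values: Pias1, which inhibits the factors below the receptors, differed by 0.24 (SE 0.10) without overlap, and Ptpn2, a phosphatase that acts on the JAK kinases, by 0.17 (SE 0.11). Of the 13 receptor and signalling genes, 9 were higher and 4 lower, with a median of 0.15. At an unadjusted p under 0.05, 3 were higher and 1 lower, where 2.3% of all genes were higher and 3.98% lower at that level. Groups without overlap were found for 4 higher genes and 1 lower gene of the 13, where 4.28% and 7.46% of all genes showed the same. The groups did not overlap in Ifngr1, Ifnar2 and Socs1. Their signs therefore could not turn when an array was left out or within a kind of array.

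**Figure D4:**
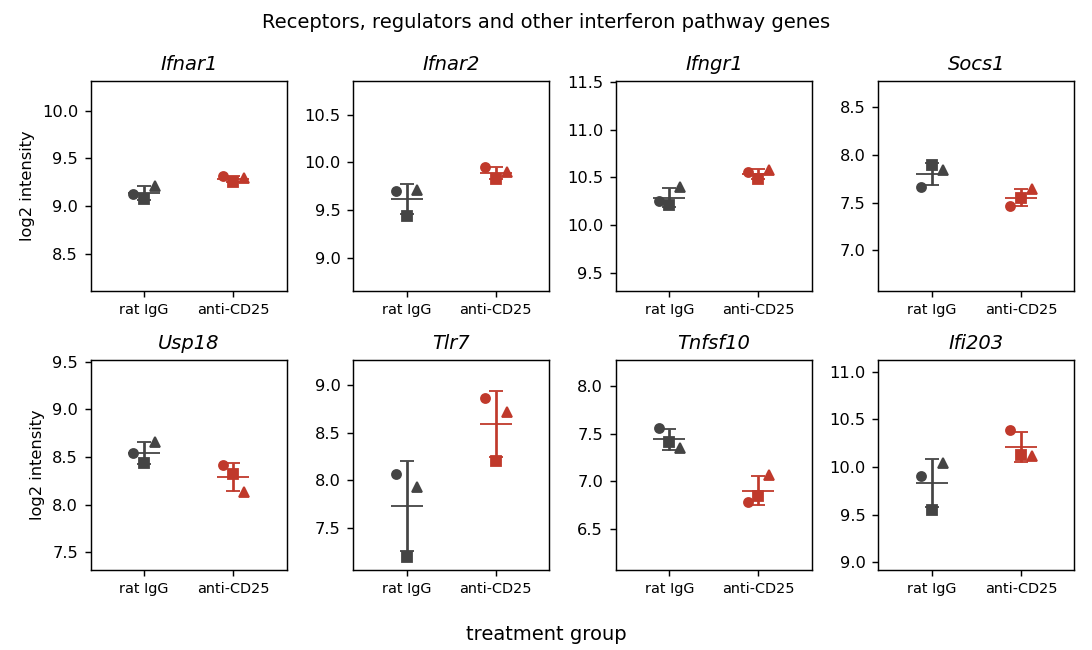
Log2 intensity (vertical axes, each spanning 2.2 units) of 8 interferon pathway genes in the rat IgG and anti-CD25 groups (horizontal axes); symbols are single arrays (circle 1, square 2, triangle 3), and bars are the mean ± SD. The groups do not overlap in any of the 8 panels, and no gene passed the adjusted test. Genes of the same lists whose groups overlap, such as Ifngr2 and Cxcl10, are not shown. Of all genes tested, 4.28% were higher and 7.46% lower without overlap.

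Among 13 genes of sensing and induction, 9 were higher and 4 lower, with a median of 0.11. Tlr7, the endosomal receptor for single-stranded RNA, which macrophages and plasmacytoid dendritic cells carry, measured 8.06, 7.19 and 7.93 log2 units with rat IgG and 8.86, 8.20 and 8.72 with anti-CD25. The groups did not overlap, and rat IgG 2 and anti-CD25 2 were the lowest of their groups, as in the macrophage marker mean. The difference was 0.87 (SE 0.24; limma adjusted p = 0.750), a 1.82-fold higher level, with 0.90 among the high-Xist arrays and 0.79 between the low-Xist arrays. Without rat IgG 2 it fell to 0.60. What part macrophage content has in the Tlr7 values was not tested. Irf3, the factor that starts interferon beta transcription, differed by -0.14 (SE 0.078). Of 38 further interferon targets, 24 were higher and 14 lower, with a median of 0.039. Tnfsf10, which encodes the death ligand TRAIL, measured 7.56, 7.41 and 7.35 with rat IgG and 6.79, 6.85 and 7.07 with anti-CD25, a difference of -0.54 (SE 0.10; limma adjusted p = 0.750). That difference was -0.67 among the high-Xist arrays and -0.28 between the low-Xist arrays. Ifi203, a nuclear protein of the interferon-induced HIN family, measured 9.91, 9.55 and 10.04 against 10.39, 10.12 and 10.12, a difference of 0.38 (SE 0.14), and 0.24 without rat IgG 2. Among the high-Xist arrays Ifi203 differed by 0.53, and between the low-Xist arrays by 0.075. The chemokines Cxcl9 and Cxcl10, which draw T cells and can be induced by interferon gamma, overlapped between groups and differed by -0.056 (SE 0.12) and 0.12 (SE 0.17). Cxcl10 was 0.37 among the high-Xist arrays and -0.38 between the low-Xist arrays.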

How the data were processed

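Total RNA of whole skeletal muscle was hybridised to Affymetrix arrays, 3 per treatment group. The deposited values are linear intensities per probe set, made with Affymetrix Power Tools and RMA, per the submitters' processing notes; for versions and genome build, none is given in the sources used here. RMA corrects background and equalises the arrays, which narrows dim differences. The log2 of each intensity was taken here. Of 24922 rows, 21425 had 1 gene symbol in the platform annotation, 1399 had several and 2098 had no entry; rows with 1 symbol gave 19752 genes, each by its highest-mean probe set. Groups were compared with limma 3.58.1 in R 4.3.3, with moderated variances and Benjamini-Hochberg adjustment over all 19752 genes, at an adjusted p of 0.05. The script was tested on simulated data. With 3 arrays per group the number of arrays limits precision: the 95% interval reached 0.22 log2 units to either side of the difference in the median gene, and an exact permutation test of a single value cannot go below 0.1.

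The 49 genes and all lists were chosen with earlier results of these data known. Genes named were, per role, the 3 with the largest limma statistic and the one with the highest mean, the 3 with the largest SD within groups over all roles, a fixed list of known interferon genes, and 2 per other pathway list. Other genes, among them Cmpk2, Oasl1, Ifngr2, Ifnlr1, Il10rb, Socs1, Pias1, Ptpn2, Mertk and Cd163, were named after their values were seen where the text singles them out. Alternatives covered scaling, filters, probe set choice, variance models, Xist kind, the numbers in the titles as a block and each array left out.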

Additional observations from a re-analysis of the deposited data

How the results depend on the processing

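None of the 42 interferon-induced genes passed limma's adjusted test in any of the 19 alternatives run. Over all genes the count past the threshold was 0 in each of them except leave-one-out, where it ran from 0 to 7, with 7 without rat IgG 3. The median difference of the 42 ran from -0.058 to 0.031 with 1 array left out and from -0.019 to 0.029 otherwise, that of the effectors from -0.089 to 0.033 and from -0.061 to 0.0024, and that of the GTPases from -0.023 to 0.12 and from -0.032 to 0.057. The GTPase value of 0.12, without rat IgG 1, lay further from the reported 0.031 than the spread within groups. The effectors minus GTPases contrast stayed below 0 in all 17 alternatives that gave it, from -0.096 to -0.024 with 1 array left out and from -0.079 to -0.026 otherwise. Every rat IgG array lay above every anti-CD25 array in this contrast. Leaving arrays out therefore could not turn its sign, and the steady sign there adds no support. Genes at an unadjusted p under 0.05 numbered 1240, against 663 without rat IgG 2, 741 without anti-CD25 1, 3030 without rat IgG 3, 2254 with array weights and 4081 on the high-Xist arrays alone; among the 42 the count was between 0 and 3. Of 22 named members, 13 changed sign in at least 1 alternative. The sign held in these alternatives, which include the high-Xist arrays alone but not the low-Xist pair alone, in Gbp5, Iigp1, Irgm1, Oas2, Rsad2, Stat2, Trim30a, Upp1 and Usp18. In Trim30a and Usp18 the groups did not overlap, so leaving arrays out could not turn the sign. Between the low-Xist arrays it turned in Iigp1 (-0.21), Oas2 (-0.051) and Stat2 (-0.026).

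Same-numbered samples' deviations from their group means correlated at 0.030, -0.0067 and -0.17, which gave no sign that the numbers in the titles pair the samples. With 3 samples per group these values cannot exclude pairing, and number 3 was the low-Xist array in both groups. With the number as a replicate block, 0 of the 42 and 0 of all genes passed, the median of the 42 was -0.0066, and 0 of the 42 had an unadjusted p under 0.05. The cause of these shifts was not tested. Signal over background limits the dim members Mx1, Mx2, Gbp5, Gbp8 and Ido1 most.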
